A study of Caenorhabditis elegans with 6 samples.

Results

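The chitinase genes (*cht*) and the chitinase-like genes (*chil*) of *C. elegans* were examined in RNA-seq of embryos. Members were chosen by their symbol: every row of the deposited gene table named *chil-* or *cht-* with a number was taken, 31 of 19933 genes, of which 27 were *chil* and 4 were *cht* genes. The set itself was taken up with the values of the EV and *pri-1* RNAi comparison already known, so the levels and fold changes of its members are a description and carry no p-value. Embryos came from N2 wild-type hermaphrodites fed from the L1 stage for 96 h at 20°C on bacteria that carried either the empty RNAi vector (EV) or a vector producing double-stranded RNA against *pri-1* (*pri-1* RNAi, with libraries called RNAi replicates). *pri-1* encodes one subunit of the DNA primase. There were 3 libraries per group, and both groups were wild type. Eggs laid on the plates were collected after adults and hatched worms had been washed off. The study describes embryos of *pri-1* RNAi mothers as arresting early in development, before morphogenesis, so that stage and treatment cannot be told apart in this comparison.

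Chitin is a polymer of N-acetylglucosamine and is a structural component of the nematode eggshell and of the pharynx. Chitinases of glycosyl hydrolase family 18 cleave it, and CHT-1 to CHT-4 are predicted enzymes of this family. CHIL proteins are related to these chitinases by sequence, and many *chil* genes are best known as genes that the epidermis switches on when the worm detects oomycetes, fungus-like pathogens that attach to its cuticle. *chil-27* is widely used as a reporter of this response.

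All 6 libraries were deep. CPM is the number of reads of a gene per 1000000 reads assigned to genes in that library. Most low values of a library were multiples of a step, taken as 1 read (93.6% to 94.96% of values up to 20 reads), which put the totals between 122751290 and 162069410 reads. The floor was set at 3 reads, which is 0.0185 to 0.0244 CPM depending on the library. This floor covers counting error only. Whether each mate of a read pair was counted by itself is not given in the sources used here. If so, reads are not independent and the error is larger. The labels do not say whether the libraries of a group came from separate cultures, although the study counts them as 3 experiments, and p-values measure the spread between these libraries. The RNAi target *pri-1* was at 41.2, 47.2 and 26.9 CPM in the EV libraries (replicates 1, 2 and 3, the order kept throughout) and at 28.6, 28.7 and 24.3 CPM with *pri-1* RNAi. The groups overlapped, and the log2 fold change (log2FC) of -0.46 (standard error, SE, 0.29) did not pass the test (limma, adjusted p = 0.285). A lower level of a transcript in whole embryos can come from fewer cells of the type that makes it or from less RNA per cell, and bulk libraries cannot tell these apart.

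Most of the 31 genes were scarce in EV embryos. In 21 *chil* genes the EV mean was under 0.5 CPM. A gene entered the test if 3 or more libraries had 0.5 CPM or more of it. The test was limma on log2(CPM + 0.5) with adjustment over the 14801 genes that passed. Of the 31 members, 16 passed this filter and 15 did not. Among the 16, 8 passed only through the *pri-1* RNAi libraries, since no EV library reached 0.5 CPM, and these had to be higher in *pri-1* RNAi. In the fit, 10 members were called higher (*cht-1* and 9 *chil* genes) and 1 was called lower (*cht-2*). Over all tested genes, 17.3% were called higher and 9.94% lower. Since the set was taken up with this contrast known, nothing is read from these counts. The 5 tested members that were not called were *cht-3*, *cht-4*, *chil-10*, *chil-13* and *chil-25*. Without the filter, the median log2FC over all 31 members was 0.28 against 0.10 over all genes.

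**Figure D1:**
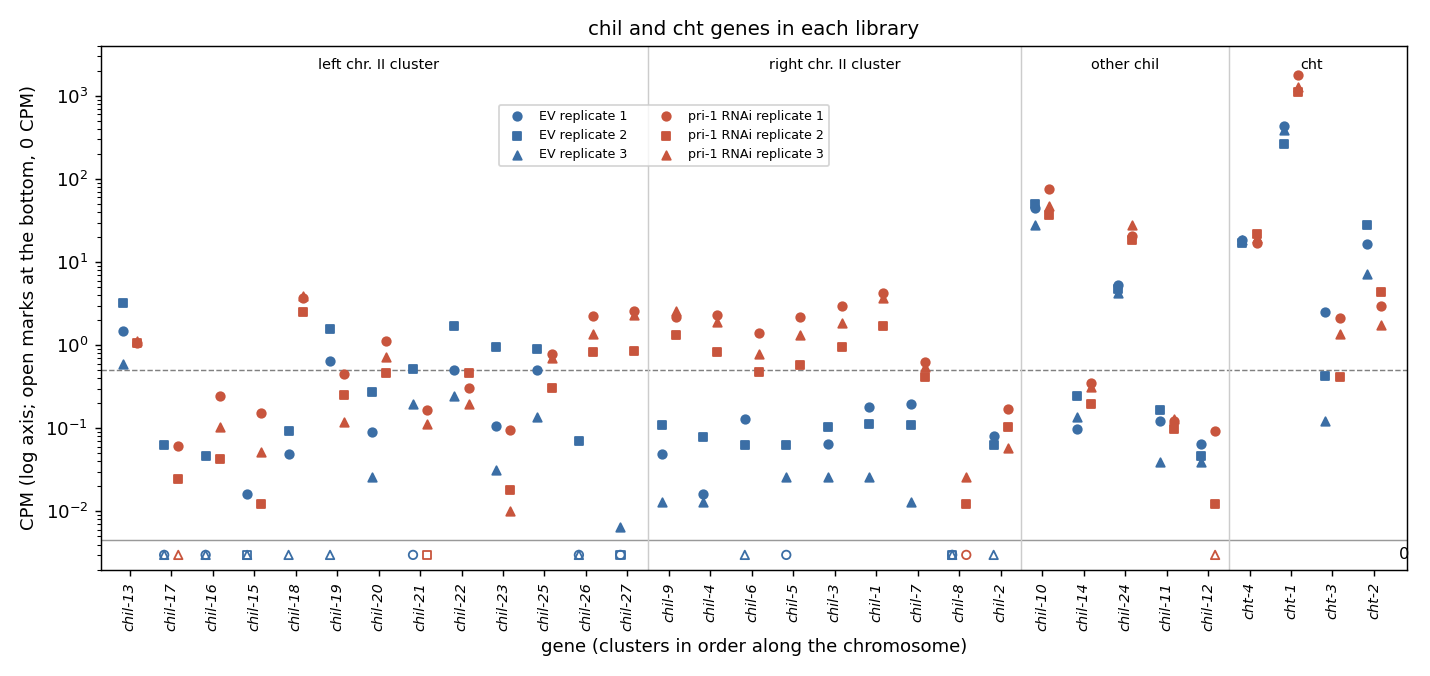
CPM of each of the 31 members in each library, on a log axis (filled marks), with 0 CPM drawn as open marks at the bottom; blue marks are EV libraries, red marks are *pri-1* RNAi libraries, and the dashed line is the filter of 0.5 CPM. In 13 genes all 3 *pri-1* RNAi libraries lie above all 3 EV libraries, in *cht-2* they lie below, and in 17 genes the groups overlap.

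The libraries were also compared directly, which needs no filter. In 13 members (12 *chil* genes and *cht-1*) the lowest *pri-1* RNAi value exceeded the highest EV value, in 1 member the reverse held, and 17 members overlapped. Over all genes detected in at least 1 library, 31.1% were entirely above and 15.3% entirely below. With no filter in the fit, 13 members were called higher and 1 lower, where 19.3% and 7.31% of all genes were. The 3 added genes were *chil-6*, *chil-7* and *chil-20*.

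The predicted chitinases did not move as a group. *cht-1* (WBGene00000503, chromosome X, 3397613 to 3400017, minus strand, WBcel235) was the most abundant member per length. It had 439, 265 and 386 CPM in EV and 1798, 1101 and 1295 CPM in *pri-1* RNAi embryos. The lowest *pri-1* RNAi library was well above the highest EV library. The EV mean of 364 ± 88.9 CPM (SD, n = 3) compared with 1398 ± 359 CPM (SD, n = 3) after *pri-1* RNAi, a log2FC of 1.94 (SE 0.28) on the log2(CPM + 0.5) scale.

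*cht-2* (WBGene00011757, chromosome II, 8520925 to 8523490, plus strand) went the other way. It had 16.3, 28.4 and 7.25 CPM in EV and 2.96, 4.37 and 1.77 CPM in *pri-1* RNAi embryos. The groups did not overlap, but the EV libraries were spread widely and EV replicate 3 was not far above the *pri-1* RNAi libraries. The log2FC was -2.21 (SE 0.55). With the same genes tested, its call was lost without EV replicate 1, without RNAi replicate 1 and without RNAi replicate 3, and leaving out single libraries gave log2FC values between -2.71 and -1.76. Library numbers were 1, 2 and 3 in EV and 1, 3 and 4 in *pri-1* RNAi. As a block, this number compares only EV replicate 1 with RNAi replicate 1 and EV replicate 3 with RNAi replicate 2. That fit gave a log2FC of -1.48.

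*cht-4* (WBGene00021252, chromosome III, 1653723 to 1657480, minus strand) had 18.3, 17.0 and 18.6 CPM in EV and 17.0, 21.7 and 19.5 CPM in *pri-1* RNAi embryos. It was the steadiest of the 4 between groups, and its log2FC of 0.10 was smaller than the SE of 0.27. *cht-3* (WBGene00016084, chromosome IV, 7003623 to 7009268, plus strand) was low and scattered. It had 2.53, 0.424 and 0.124 CPM in EV and 2.12, 0.420 and 1.36 CPM in *pri-1* RNAi embryos. Replicate 1 was the highest library in both groups, and the log2FC of 0.45 had a SE of 0.62.

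**Figure D2:**
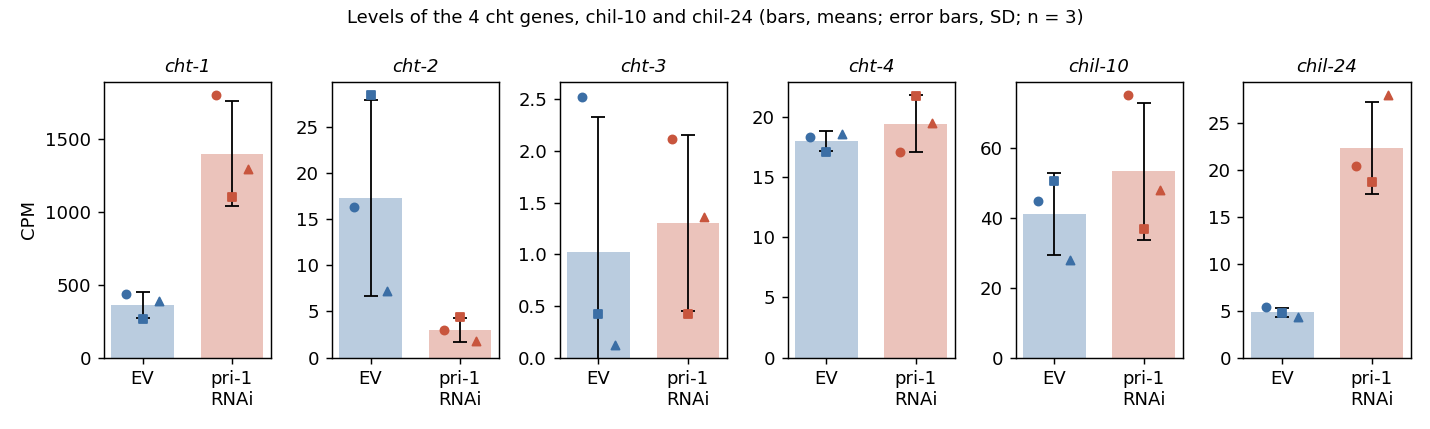
CPM of *cht-1*, *cht-2*, *cht-3*, *cht-4*, *chil-10* and *chil-24* in EV (blue) and *pri-1* RNAi (red) libraries; bars are means, error bars are SD (n = 3, cut at 0) and points are libraries (circle, square and triangle for replicates 1, 2 and 3). Each panel has its own axis from 0. The groups are apart for *cht-1*, *cht-2* and *chil-24* and overlap for *cht-3*, *cht-4* and *chil-10*.

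The rule did not take 2 further chitinase genes, which the table lists by their sequence names C08B6.4 (*cht-5*) and T05H4.7 (*cht-6*). *cht-5* had 314, 297 and 311 CPM in EV and 37.2, 120 and 30.8 CPM in *pri-1* RNAi embryos. All 3 *pri-1* RNAi libraries were far below EV, with RNAi replicate 2 the least so. The log2FC was -2.56 (SE 0.47, limma adjusted p = 0.00705), a call kept without each single library. *cht-6* had 11.5, 10.7 and 9.36 CPM in EV and 6.29, 6.34 and 6.10 CPM in *pri-1* RNAi embryos. The groups did not overlap, but the log2FC of -0.70 (SE 0.30) did not pass the test (limma adjusted p = 0.127). *chil-28* was not analysed here.

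Among the *chil* genes, *chil-10* and *chil-24* had the highest levels per length in EV embryos. *chil-10* (WBGene00016642, chromosome X, 957881 to 960585, plus strand) had 44.6, 50.5 and 27.8 CPM in EV and 74.9, 36.7 and 47.9 CPM in *pri-1* RNAi embryos. The groups overlapped, and the log2FC was 0.35 (SE 0.35). *chil-24* (WBGene00020407, chromosome II, 3129162 to 3131414, plus strand) had 5.34, 4.78 and 4.29 CPM in EV and 20.4, 18.7 and 27.9 CPM in *pri-1* RNAi embryos. Its libraries agreed closely within each group, with means of 4.80 ± 0.529 CPM and 22.3 ± 4.91 CPM (SD, n = 3). The log2FC was 2.09 (SE 0.32), and the mean was 4.65 times higher in *pri-1* RNAi embryos.

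The other *chil* genes called higher had between 1 and 40 reads over the EV libraries together, and from 0.580 to 4.24 CPM per *pri-1* RNAi library. These 8 genes all lie in 2 clusters on chromosome II, where 22 of the 31 members sit with at most 20 kb between neighbours. The left cluster spans 43.1 kb (chromosome II, 9436624 to 9479696, WBcel235) and holds 13 members. The right cluster spans 31.4 kb (chromosome II, 9843258 to 9874608) and holds 9 members, all on the minus strand. The remaining 9 members stand alone, *chil-24* and *cht-2* on chromosome II and 7 on other chromosomes.

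In the right cluster, 7 of the 9 genes were higher in each *pri-1* RNAi library than in any EV library, where 31.1% of all detected genes were, and 5 were called higher, where 17.3% of all tested genes were. All 5 passed the filter only through the *pri-1* RNAi libraries, so nothing is read from their calls. The levels of the 9 genes added up to 0.717, 0.702 and 0.117 CPM in EV and to 16.0, 6.44 and 12.8 CPM in *pri-1* RNAi embryos. *chil-1* (WBGene00007465) had 0.179, 0.112 and 0.0261 CPM in EV and 4.24, 1.72 and 3.68 CPM in *pri-1* RNAi embryos, with a log2FC of 2.55 (SE 0.33). *chil-9* (WBGene00014162), the leftmost gene of the cluster, had 0.0489, 0.110 and 0.0130 CPM in EV and 2.16, 1.33 and 2.55 CPM in *pri-1* RNAi embryos, with a log2FC of 2.15 (SE 0.25). In both genes EV replicate 3 was the lowest of all libraries and RNAi replicate 2 the lowest of its group.

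*chil-3*, *chil-4* and *chil-5* lie next to each other within the right cluster, with *chil-6* between *chil-4* and *chil-5*. *chil-3* (WBGene00007467) had 0.0652, 0.103 and 0.0261 CPM in EV and 2.96, 0.962 and 1.85 CPM in *pri-1* RNAi embryos (log2FC 2.02, SE 0.32). *chil-4* (WBGene00007469) had 0.0163, 0.0784 and 0.0130 CPM in EV and 2.29, 0.821 and 1.92 CPM in *pri-1* RNAi embryos (log2FC 1.96, SE 0.30). *chil-5* (WBGene00007470) had 0, 0.0628 and 0.0261 CPM in EV and 2.17, 0.580 and 1.34 CPM in *pri-1* RNAi embryos (log2FC 1.72, SE 0.32). In all 3 genes the order of the *pri-1* RNAi libraries was the same, with replicate 1 highest and replicate 2 lowest.

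*chil-6* and *chil-7*, too low for the filter, had the same separation of groups. *chil-6* had 0.130, 0.0628 and 0 CPM in EV and 1.4005, 0.481 and 0.783 CPM in *pri-1* RNAi embryos, and *chil-7* had 0.195, 0.110 and 0.0130 CPM in EV and 0.627, 0.420 and 0.5502 CPM in *pri-1* RNAi embryos. The pair at the right end of the cluster, *chil-8* and *chil-2*, stayed near the floor in both groups. *chil-8* had no read in EV and 6 reads over the *pri-1* RNAi libraries, and *chil-2* had 18 reads in EV and 48 in *pri-1* RNAi libraries, with overlap.

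In the left cluster the direction was set beside the strand. The 3 members on the plus strand, *chil-18*, *chil-26* and *chil-27*, were entirely higher in *pri-1* RNAi embryos, and of the 10 on the minus strand 1 was, the annotated pseudogene *chil-20*, where 31.1% of all detected genes were. The strand was looked at after the values were known, and the difference was not tested. *chil-18* (WBGene00011161, chromosome II, 9448265 to 9449717) had 0.0489, 0.0941 and 0 CPM in EV and 3.70, 2.48 and 3.96 CPM in *pri-1* RNAi embryos. Its log2FC was 2.81 (SE 0.25), the largest among the tested members on the log2(CPM + 0.5) scale, whereas edgeR on reads gave 6.12 for *chil-18* and 8.93 for *chil-27*. Its mean was 70.9 times higher. Over the called *chil* genes the ratio of the means ran from 4.65 in *chil-24* to 70.9 in *chil-18*, leaving out *chil-27*, which had 1 read in all 3 EV libraries.

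*chil-27* (WBGene00011848, chromosome II, 9477867 to 9479696), the oomycete response reporter gene, had 0, 0 and 0.00652 CPM in EV and 2.58, 0.858 and 2.29 CPM in *pri-1* RNAi embryos. The 826 reads in the *pri-1* RNAi libraries against 1 in EV, scaled by the totals, gave a ratio of 748 (95% exact interval 134 to 29567, counting error only), so its size is poorly known. The log2FC was 2.18 (SE 0.32). Its neighbour *chil-26* (WBGene00011847, chromosome II, 9475055 to 9476295) had 0, 0.0706 and 0 CPM in EV and 2.27, 0.833 and 1.36 CPM in *pri-1* RNAi embryos, with a log2FC of 1.86 (SE 0.28). Both genes thus had fewer than 10 reads over the EV libraries and far more over the *pri-1* RNAi libraries.

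The minus-strand genes of the left cluster varied in direction, and 9 of the 10 overlapped between groups. *chil-13* (WBGene00010945) had 1.48, 3.24 and 0.587 CPM in EV and 1.06, 1.06 and 1.13 CPM in *pri-1* RNAi embryos (log2FC -0.34, SE 0.43), and was called lower with quantile normalization only. *chil-25* (WBGene00011846) had 0.497, 0.894 and 0.137 CPM in EV and 0.781, 0.309 and 0.706 CPM in *pri-1* RNAi embryos (log2FC 0.17, SE 0.33). EV replicate 2 was the highest EV library in 9 of these 10 genes. *chil-19*, *chil-21*, *chil-22* and *chil-23* had lower means in *pri-1* RNAi embryos than in EV, with overlapping libraries, and *chil-22* reached 1.69 CPM in EV replicate 2, the highest value of any untested member. *chil-15*, *chil-16* and *chil-17* had from 2 to 8 reads in EV and from 12 to 55 in *pri-1* RNAi libraries. *chil-20* (WBGene00011163, chromosome II, 9455417 to 9456559) had 0.0896, 0.275 and 0.0261 CPM in EV and 1.13, 0.463 and 0.718 CPM in *pri-1* RNAi embryos.

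**Figure D3:**
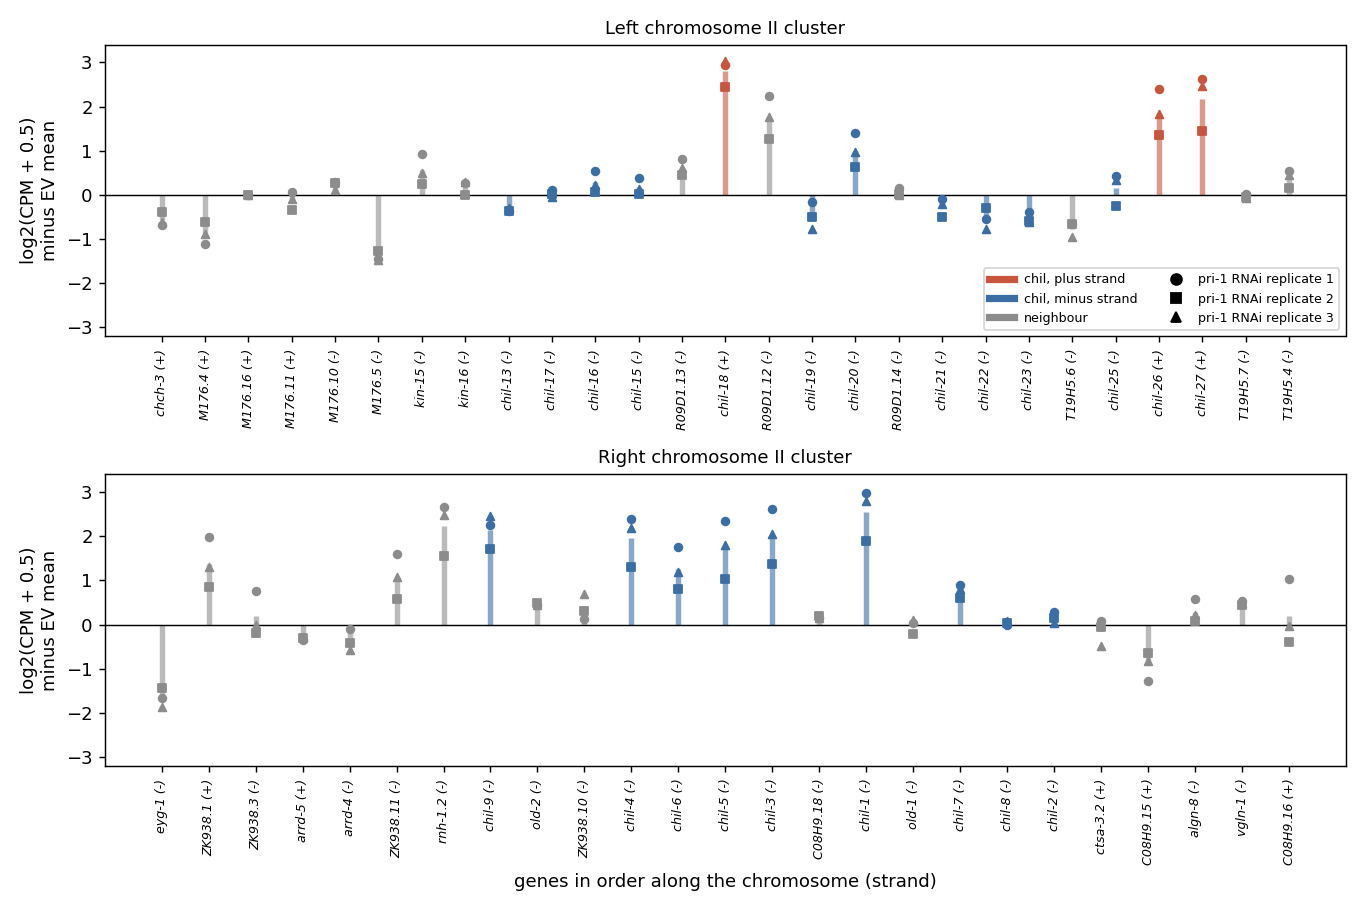
Difference of each *pri-1* RNAi library from the EV mean, in log2(CPM + 0.5), for the genes of the left (top) and right (bottom) chromosome II clusters and their neighbours within 20 kb, in order along the chromosome; lines are means, marks are *pri-1* RNAi libraries, and the strand is given with the name. In the left cluster the 3 plus-strand *chil* genes (red) stand highest, and in the right cluster 7 of 9 *chil* genes (blue) are raised.

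The *chil* genes outside the clusters other than *chil-10* and *chil-24* were low in both groups. *chil-14* (chromosome V) had 64 reads in EV and 127 in *pri-1* RNAi libraries, *chil-11* (chromosome IV) had 42 and 52, and *chil-12* (chromosome V) had 20 and 14. In all 3 genes the libraries of the groups overlapped.

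Other genes at the 2 clusters were compared. Inside the clusters lay 8 genes that are not members, of which 1 was tested and was not called. That gene, R09D1.12, had 1.19, 3.22 and 0.163 CPM in EV and 7.08, 3.34 and 4.95 CPM in *pri-1* RNAi embryos (log2FC 1.75, limma adjusted p = 0.0729). Within 20 kb outside lay 22 genes, of which 16 were tested, 2 were called higher and 1 lower, where the shares over all tested genes were 17.3% and 9.94%. All 3 were beside the right cluster, namely *rnh-1.2* (log2FC 2.23, limma adjusted p = 0.0148), whose name marks it as a ribonuclease H gene, ZK938.1 (1.38, adjusted p = 0.0228) and *eyg-1* (-1.65, adjusted p = 0.0210). The calls of *rnh-1.2* and ZK938.1 were lost without RNAi replicate 1 and without replicate 3, that of *eyg-1* also without EV replicate 1, and that of ZK938.1 also with quantile normalization.

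The clusters also hold or adjoin receptor tyrosine kinase genes of 1 family. *old-1* and *old-2* lie inside the right cluster and *kin-15* and *kin-16* beside the left one. *old-1*, which is known as a regulator of the oomycete response, had 0.228, 0.298 and 0.0913 CPM in EV and 0.221, 0.1002 and 0.251 CPM in *pri-1* RNAi embryos. Its groups overlapped at a level below the filter. *old-2* had no read in EV and 0.182, 0.202 and 0.177 CPM in *pri-1* RNAi embryos. Both *old-1* and *chil-1* are on the minus strand, and the annotated 5′ end of *chil-1* overlaps the 3′ end of *old-1*, so reads there can be given to either gene.

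Levels of different genes were set side by side only per length, as CPM per kb of annotated exon. In EV embryos the order of mean levels was *cht-1* (178 CPM per kb), *chil-10* (32.3), *cht-4* (14.7), *cht-2* (8.93), *chil-24* (3.49) and *chil-13* (1.14). The libraries of *cht-2* overlapped with those of *cht-4* and with those of *chil-24*. Within each EV library, *cht-2* was above *chil-24* (8.42 against 3.88, 14.6 against 3.48 and 3.74 against 3.11). It was below *cht-4* in EV replicates 1 and 3 and above it in EV replicate 2 (14.6 against 13.9), so the order of that pair was not settled. In *pri-1* RNAi embryos the order of mean levels was *cht-1* (685 CPM per kb), *chil-10* (42.0), *chil-24* (16.2), *cht-4* (15.9), *chil-18* (2.50) and *cht-2* (1.56). *chil-24* had thus come level with *cht-4*, and *chil-18*, close to the floor in EV, overlapped with *cht-2*.

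The *pri-1* RNAi libraries were not alike for these genes. RNAi replicate 2 was the lowest of its group in all 10 members called higher, at 33.0% to 77.3% of the mean of replicates 1 and 3 (median 44.7%), and in 22 of all 31 members. EV replicate 3 was the lowest EV library in 20 of 31 members and EV replicate 2 the highest in 19. The 9 *chil* genes called higher added up to 5.70, 5.42 and 4.397 CPM in EV and to 42.8, 28.3 and 46.9 CPM in *pri-1* RNAi embryos. Leaving out 1 library and applying the filter again, 10 members were called higher without any one EV library, but only *cht-1* and *chil-24* without RNAi replicate 1 or 2 and only *cht-1* without RNAi replicate 3. For 8 of the 10 this was fixed in advance. No EV library had 0.5 CPM of them, so they left the test without any RNAi library, and nothing is read from their loss. When the same genes were kept in the test, all 10 were called in each of 6 fits. Those genes had been chosen with all libraries, so for the 8 nothing is read from this either. The log2FC values of the 10 kept their sign with trimmed-mean scaling, median centring and quantile normalization. In the 8, every EV library was under 0.5 CPM and every *pri-1* RNAi library above it, so nothing is read from their sign. Sizes moved. Quantile normalization gave 0.96 for *chil-5* (1.72 as deposited), 1.93 for *cht-1* (1.94) and 2.13 for *chil-24* (2.09). Median centring moved the median of all genes by 0.21 on the log2 scale and lifted every tested member by about that much.

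In 8 *chil* genes (*chil-1*, *chil-3*, *chil-4*, *chil-5*, *chil-9*, *chil-19*, *chil-21* and *chil-23*) some values were not whole reads. Salmon can divide reads among similar transcripts by estimate, and the values of these genes are less certain for it.

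The other genes of chitin metabolism were taken from lists. Of 8 genes of chitin synthesis tested, none was higher and 2 were lower, with a median log2FC of -0.29. *chs-2*, the chitin synthase of the pharynx, had a log2FC of -0.92 (limma adjusted p = 0.0491), and C36A4.4, which encodes a UDP-N-acetylglucosamine pyrophosphorylase, one of -0.81 (adjusted p = 0.0472). Both calls were lost in 5 of 6 fits that left out 1 library (*chs-2* kept it without EV replicate 3 and C36A4.4 without EV replicate 2), that of C36A4.4 with all 3 other scalings and that of *chs-2* with median centring. *chs-1*, the chitin synthase of the eggshell, had 5.47, 2.71 and 1.06 CPM in EV and 10.3, 5.02 and 8.11 CPM in *pri-1* RNAi embryos, which overlapped (log2FC 1.37, limma adjusted p = 0.102). It was called higher with trimmed-mean scaling, median centring and quantile normalization (adjusted p = 0.0464, 0.0188 and 0.0360), and by DESeq2 1 gene of the list was higher and by edgeR 0.

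Of 9 tested genes for eggshell proteins that bind chitin and partners of the chitin synthase, 0 were called by limma at the adjusted threshold, and 1, *egg-3*, had an unadjusted p under 0.05 (log2FC 0.92, limma unadjusted p = 0.0475). edgeR and DESeq2 also called 0 of the 9. Several were far higher in EV replicate 1 than in the other EV libraries, so the lack of calls does not show steady levels. *cpg-1* had 34.5, 1.66 and 6.37 CPM in EV and 20.9, 13.6 and 18.4 CPM in *pri-1* RNAi embryos (log2FC 1.15, SE 0.90). *cpg-2* had 46.8, 2.59 and 7.48 CPM in EV and 7.32, 6.21 and 8.05 CPM in *pri-1* RNAi embryos (log2FC -0.46, SE 0.89). Of 7 tested deacetylase-like and hexosaminidase genes, none was higher and 2 were lower. *lgx-1*, which encodes a protein with a chitin deacetylase-like domain, had a log2FC of -1.36 (limma adjusted p = 0.00889) and *hex-5*, a hexosaminidase gene, one of -1.69 (adjusted p = 0.0341). The call of *lgx-1* was lost without EV replicate 1 and without RNAi replicate 3, and that of *hex-5* in every fit without 1 library except that without EV replicate 3. edgeR called 4 genes of this list lower and DESeq2 5.

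Genes of the oomycete recognition and intracellular pathogen responses, both under the control of the *pals-22* and *pals-25* pair, were compared in the same way. Of 17 tested, 9 were higher and none was lower, where 17.3% and 9.94% of all tested genes were, and the median log2FC was 2.28 against -0.01 over all tested genes. The list was chosen with earlier results of these data known. F26F2.1, F26F2.3, F26F2.4, *pals-5*, *pals-29* and *skr-5* had less than 0.5 CPM in every EV library. They passed the filter only through the *pri-1* RNAi libraries and had to be higher. Nothing is read from their calls, from the count or from the list median. edgeR and DESeq2 each called 10 higher and 0 lower. The largest log2FC on the log2(CPM + 0.5) scale was that of *eol-1*, related to a mammalian RNA decapping enzyme, with 1.12, 2.62 and 0.757 CPM in EV and 112, 63.7 and 108 CPM in *pri-1* RNAi embryos (log2FC 5.64, limma adjusted p = 0.000372). *pals-5*, a common reporter gene of the intracellular pathogen response, had 0.130, 0.471 and 0.0783 CPM in EV and 11.7, 9.43 and 14.1 CPM in *pri-1* RNAi embryos (log2FC 4.09, adjusted p = 0.000455). The other genes that rose were F26F2.4 (5.27), *skr-5* (4.78), *pals-29* (4.47), F26F2.3 (4.18), F26F2.1 (4.14) and *skr-4* (3.51), with adjusted p-values from 0.000329 to 0.00118, and *cul-6* (2.28, adjusted p = 0.0344). *skr-4*, *skr-5* and *cul-6* encode components of a cullin-RING ubiquitin ligase. The call of *cul-6* was lost in 4 of 6 fits that left out 1 library, those without EV replicate 1 and without each RNAi replicate. The other 8 calls were kept in all 6. These fits kept the genes chosen with all libraries, so nothing is read from them for genes that passed only through the *pri-1* RNAi libraries.

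The regulators of these responses in the list were not called on the CPM as deposited. *pals-22*, which represses them, had a log2FC of -0.05 (limma adjusted p = 0.915) and *pals-25*, which activates them, one of 0.23 (adjusted p = 0.719). The values were 0.76 for the transcription factor gene *zip-1* (adjusted p = 0.329), 0.68 for the viral RNA sensor gene *drh-1* (adjusted p = 0.331), 0.28 for *pnp-1* (adjusted p = 0.332) and -0.12 for the repressor gene *lin-35* (adjusted p = 0.938). With both median centring and quantile normalization, *zip-1* and *drh-1* passed the threshold as higher. *clec-35* and *skr-3* were also tested and not called, although *skr-3* was called higher with all 3 other scalings and *clec-35* lower with quantile normalization, and *old-1* and *clec-27* were too low to be tested.

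**Figure D4:**
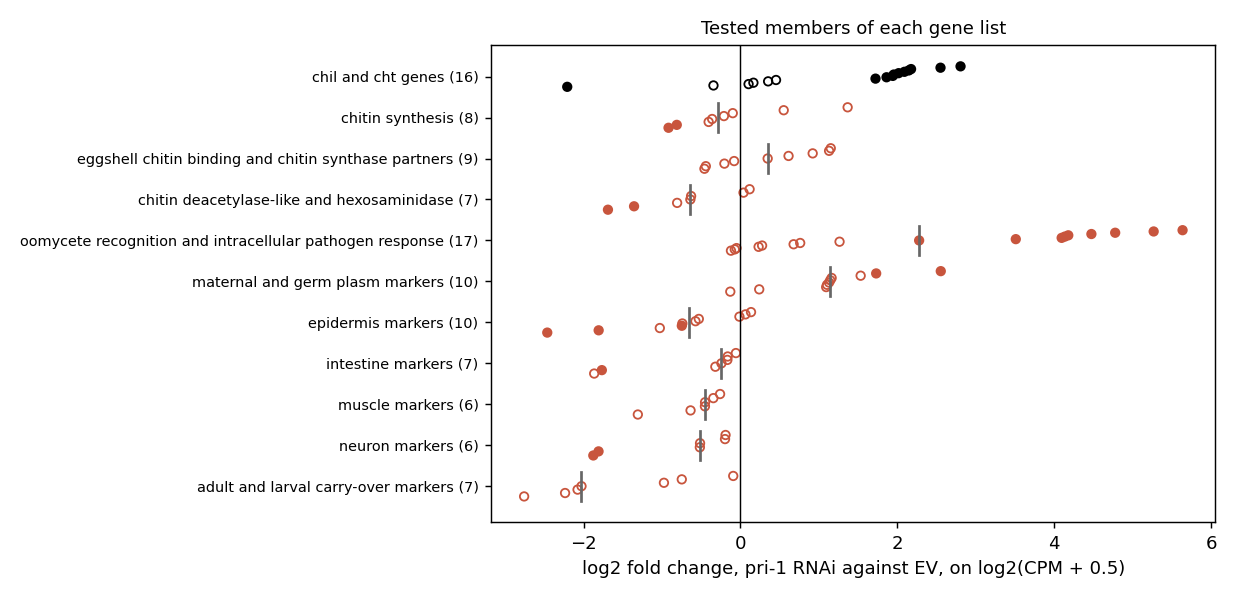
Log2FC values on log2(CPM + 0.5) of the tested genes of each list, with their number in brackets; filled marks passed the adjusted threshold of 0.05, open marks did not, and grey lines are list medians, given for every list but the *chil* and *cht* genes. On this scale, which shrinks genes near 0 in EV, the pathogen response genes reach 5.64 and the *chil* genes 2.81, and the chitin synthesis genes lie around their median of -0.29.

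Markers of embryonic tissues and stages were counted beside the shares over all tested genes, 17.3% higher and 9.94% lower. Of 10 epidermis markers, 3 were lower and none was higher. These were *wrt-2* (log2FC -2.46, limma adjusted p = 0.00681), the cuticle collagen gene *dpy-7* (-1.81, adjusted p = 0.00621) and *elt-3* (-0.75, adjusted p = 0.0425). The call of *elt-3* was kept only without EV replicate 3 when single libraries were left out, and was lost with median centring and quantile normalization. *che-14*, not called on the CPM as deposited, was called lower with trimmed-mean scaling, median centring and quantile normalization. For this list, edgeR and DESeq2 each called 6 lower and 0 higher. Summed over the list, epidermis markers ran from 873 to 1089 CPM in EV and from 399 to 509 CPM in *pri-1* RNAi embryos, and none of them was at 0. Most of the EV sums was *dpy-7* (360 to 508 CPM in EV, 89.4 to 199 in *pri-1* RNAi) and *wrt-2* (134 to 229 and 22.7 to 68.6). The log2FC was 0.06 for *elt-1*, 0.14 for *nhr-25* and -0.01 for *lin-22*, so the sum does not stand for every marker. Of 10 maternal and germ plasm markers, 2 were higher, *mex-3* (2.55, adjusted p = 0.000911) and *oma-1* (1.73, adjusted p = 0.0494), and none was lower. The call of *oma-1* was lost in all fits without 1 library except that without EV replicate 1. The sums of the 10 markers ran from 72.5 to 176 CPM in EV and from 259 to 398 CPM in *pri-1* RNAi embryos, again with none at 0. Most of the *pri-1* RNAi sums was *mex-3* alone, with 29.3 to 43.9 CPM in EV and 153 to 233 CPM in *pri-1* RNAi embryos. The sums are thus no measure of the whole list. The part of these markers in the levels of the *chil* and *cht* genes was not tested.

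Of 7 tested intestine markers 1 was lower (*pho-1*, -1.77, limma adjusted p = 0.0370), a call kept only without EV replicate 3 when single libraries were left out. Of 6 neuron markers 2 were lower, *rab-3* (-1.88, adjusted p = 0.00360), kept in all 6 fits, and *snt-1* (-1.81, adjusted p = 0.04999), kept only without EV replicate 3. limma called 0 of 6 muscle markers, where 1 had an unadjusted p under 0.05, edgeR called 0 and DESeq2 called 2. It also called 0 of 7 tested markers of adult and larval carry-over, where 0 had an unadjusted p under 0.05, edgeR called 1 lower, and DESeq2 called 1 higher and 2 lower. The carry-over markers added up to 857 CPM in EV replicate 1 and to between 103 and 192 CPM in the other libraries. Most of the sum in EV replicate 2 and in each *pri-1* RNAi library was *fbn-1*, with 87.1 to 138 CPM over all libraries. The sums thus understate how far the *vit* genes of the list differed. Each *vit* gene was highest in EV replicate 1. *vit-6* had 180, 3.28 and 22.7 CPM in EV and 4.62, 2.43 and 15.1 CPM in *pri-1* RNAi embryos. The sperm gene *msp-142*, with at most 0.0977 CPM in any library, was at 0 in EV replicate 2 and RNAi replicate 2. *msp-31*, another sperm gene of the list, had 0.125 and 0.186 CPM in these libraries. Among the EV libraries, replicate 1 was also the highest for *cht-1*, *cht-3*, *chil-1*, *chil-2*, *chil-6*, *chil-7*, *chil-12*, *chil-15* and *chil-24*. The part of carry-over in their levels was not tested.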

How the data were processed

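RNA-seq libraries of embryos (3 EV, 3 *pri-1* RNAi; 150 bp paired-end reads) were used as the authors deposited them, in CPM for 19933 genes, of which 166 were at 0 in all libraries. According to the submitters' processing notes and the methods, reads were trimmed (Trimmomatic 0.36), assigned to WBcel235 transcripts (Salmon 1.4.0) and summed into genes, and edgeR 3.32.1 was used. All 31 members were matched to Ensembl annotation of WBcel235 for coordinates, strand and exon length. The members and lists were chosen with earlier results of these data known. Lists held 101 genes, 92 of them in the table.

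Log2(CPM + 0.5) was compared with limma 3.58.1 in R 4.3.3 (moderated test with a mean-variance trend, no covariates) for the 14801 genes that reached 0.5 CPM in 3 or more libraries, with Benjamini-Hochberg adjustment over all of them and a threshold of 0.05. Standard errors are limma's. The pseudocount understates changes of low genes. Every *chil* and *cht* gene is accounted for, and those that were tested are given by library. Of each list, up to 3 called genes with the smallest p and genes whose role is explained are named; the other genes of the pathogen response list were named after their values were seen. The neighbours, *cht-5* and *cht-6* were named after their values were seen. Protein comparison was not made.

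Dividing by the CPM of 1 read gave whole reads (within 0.02) for 91.1% to 92.6% of values above 0. The third library of each group held values below 1 read, and its reads rest on the step shared by its other low values. These reads were used for edgeR 4.0.16 (quasi-likelihood) and DESeq2 1.42.0 as alternatives only, for genes above 10 reads in 3 or more libraries. Other alternatives were pseudocounts of 0.1 and 1, no filter, a filter on a mean of 5 CPM, 3 further scalings (trimmed mean, median, quantile), blocks, each library left out and a threshold of 0.01. The main limma fit and the edgeR and DESeq2 fits were tried on simulated data, where DESeq2 made more false calls than limma and edgeR. The other alternatives were not simulated, and no gene near 0 was simulated as changed. Tables and figures were made with Python 3.11.15, pandas 2.3.3 and matplotlib 3.10.9.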

Additional observations from a re-analysis of the deposited data

How the results depend on the processing

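Since 8 of the 10 members called higher passed the filter only through the *pri-1* RNAi libraries, their calls under other settings are a description. The 10 were also called with both other pseudocounts, all 3 scalings, both blocks, edgeR, DESeq2 and a threshold of 0.01. The library-number block compares only libraries that share a number between the groups, so EV replicate 2 and RNAi replicate 3 add nothing to its fold changes. A mean of at least 5 CPM left 5 members in the test and 2 higher. Each library left out with the filter applied again gave 1 to 10 higher members and 0 to 1 lower. Fewer members reached 0.5 CPM in 3 libraries, and *chil-24* was tested but not called without RNAi replicate 3. With the same genes tested, a choice made after the data were seen, it gave 10 higher in each fit and 0 to 1 lower, with *cht-2* lost in 3 of 6. Lower members were 2 with quantile normalization (*cht-2* and *chil-13*) and with DESeq2 (*cht-2* and *chil-23*), and 0 at a threshold of 0.01, where *cht-2* was lost. Sizes depended on the scale, and edgeR gave *chil-18* a log2FC of 6.12 and *chil-24* one of 2.02, against 2.81 and 2.09.

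Over all genes, higher calls were 1059 with a mean of at least 5 CPM, 4159 with the library number as a block, 4255 with DESeq2 and 1515 at 0.01, and lower calls were 2552 with quantile normalization, 2760 with edgeR, 3414 with DESeq2 and 358 at 0.01. Leaving out libraries gave 295 to 2862 higher and 26 to 2955 lower with the filter applied again, and 1437 to 2853 and 273 to 2993 with the same genes. The share of higher genes among all calls was 63.5%, and 55.8% with trimmed-mean scaling. Over the lists, 11 genes were higher and 10 lower. The 11 include pathogen response genes that passed the filter only through the *pri-1* RNAi libraries, so nothing is read from the higher counts. The library block gave 17 and 26, median centring 16 and 8, quantile normalization 16 and 13, edgeR 12 and 17, DESeq2 15 and 23, and a threshold of 0.01 gave 9 and 4. Leaving out libraries gave 3 to 14 higher and 0 to 17 lower, or 9 to 14 and 3 to 17 with the same genes. The causes were not tested.

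With a replicate block, 10 members were higher and 1 lower, 2110 and 1043 of all genes and 11 and 7 of the list genes. Same-numbered libraries had deviations from their group means that correlated at 0.04, -0.32 and 0.46. EV replicates 1 and 3 correlated best with the RNAi replicate of their own number, and EV replicate 2 with RNAi replicate 1 (0.52). With 3 libraries per group these values cannot decide whether the number pairs them. Depth limits genes near 3 reads, such as *chil-8*, and every fold against EV levels of a few reads.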
